A study of Mus musculus with 12 samples.

Results

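Interferon-stimulated genes are genes that cells switch on when interferons bind their surface receptors. A fixed list of 42 mouse genes of this kind was looked up by symbol in the deposited count table, and all 42 were found among its 28036 genes. The list holds 35 genes typical of the response to type I interferons and 7 typical of the response to interferon gamma (Irf1, Gbp2, Gbp3, Gbp7, Igtp, Irgm1 and Tap1), a split that is not absolute because many of these genes answer to both. They were measured by poly(A) RNA sequencing in 12 livers of C57BL/6J mice, an inbred laboratory strain, with 3 livers in each of 4 groups. EE mice had a diet model of MASH and then received 100 mg/kg of Eleutheroside E, a lignan glycoside of plants, by mouth. Resmetirom mice had the same model and then received 3 mg/kg of resmetirom, which activates thyroid hormone receptor beta, by mouth. MASH mice, which model metabolic dysfunction-associated steatohepatitis (a fatty liver disease with inflammation), ate a high-fat diet and received 0.5% CMC-Na as vehicle. Control mice ate normal chow and received the same vehicle. The model was set up over 8 weeks and dosing lasted 4 weeks, so that livers were taken at 12 weeks. Sex, age and the make-up of the high-fat diet are not stated. The labels number the livers of a group as replicates, and p-values measure the spread between these livers.

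Type I interferons signal through the receptor chains Ifnar1 and Ifnar2 and the kinases Jak1 and Tyk2, which activate a transcription factor complex that includes Stat2 and Irf9. That complex binds the interferon-stimulated response element (ISRE) in gene promoters. Interferon gamma signals through Ifngr1 and Ifngr2 and the kinases Jak1 and Jak2, and the genes it induces often carry the gamma-activated site (GAS). The induced genes encode sensors of viral RNA and DNA, enzymes that degrade or block viral RNA, membrane proteins that hold back virus particles, and factors that feed back on the pathway. In liver, hepatocytes, endothelial cells and macrophages all respond to interferons, and a whole-liver library adds their RNA together.

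Promoter sequences were searched for both elements, because they are the DNA through which the pathway reaches these genes. RefSeq windows (build GRCm38.p6) from 250 bases before to 50 bases after the transcription start were at hand for 32 of the 42 members. The ISRE letters (GAAA, any 2 bases, GAAA), on either strand, were in the windows of 17 of these 32 members (53.1%), against 1079 of 27025 genes with a window (3.99%). The GAS letters TTCNNNGAA, which read the same on both strands, were in 9 of 32 (28.1%), against 2582 of 27025 (9.55%). Of the type I members 12 of 25 with a window held the ISRE letters and 6 of 25 the GAS letters, and of the interferon gamma members 5 of 7 and 3 of 7. A match is a description of the letters and not a bound site. The 150 bases before the start are shown for 4 members whose promoters hold ISRE letters and for Irf7 and Tap1, whose windows hold neither, with the matching letters in capitals.
Bst2, chr8:71537473-71537622, minus strand: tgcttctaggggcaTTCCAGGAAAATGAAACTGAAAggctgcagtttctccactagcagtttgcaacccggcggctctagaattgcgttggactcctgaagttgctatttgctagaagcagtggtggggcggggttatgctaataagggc
Oas1a, chr5:120907526-120907675, minus strand: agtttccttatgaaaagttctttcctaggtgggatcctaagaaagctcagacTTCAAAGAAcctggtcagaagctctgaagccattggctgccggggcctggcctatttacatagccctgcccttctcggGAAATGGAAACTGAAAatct
Isg15, chr4:156200819-156200968, minus strand: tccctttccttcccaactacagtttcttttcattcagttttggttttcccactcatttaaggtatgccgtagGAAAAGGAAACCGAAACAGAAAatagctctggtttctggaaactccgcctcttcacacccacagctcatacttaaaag
Igtp, chr11:58199406-58199555, plus strand: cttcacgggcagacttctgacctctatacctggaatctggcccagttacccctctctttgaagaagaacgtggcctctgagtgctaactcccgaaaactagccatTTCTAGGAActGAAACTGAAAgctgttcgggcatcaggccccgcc
Irf7, chr7:141266425-141266574, minus strand: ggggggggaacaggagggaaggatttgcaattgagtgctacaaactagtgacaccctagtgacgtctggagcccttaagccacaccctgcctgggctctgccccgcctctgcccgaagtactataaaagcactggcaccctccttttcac
Tap1, chr17:34187406-34187555, plus strand: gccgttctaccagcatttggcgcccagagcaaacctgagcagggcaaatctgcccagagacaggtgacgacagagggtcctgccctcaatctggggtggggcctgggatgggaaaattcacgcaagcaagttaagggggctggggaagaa
In Bst2 a GAS match begins 136 bases before the start and runs into a pair of overlapping ISRE matches that begin 130 and 124 bases before it. Oas1a has a pair of overlapping ISRE matches within 20 bases of the start and a GAS match 98 bases before it. Isg15 has 3 overlapping ISRE matches, the first 78 bases before the start, and no GAS match. Igtp has a GAS match 45 bases and an ISRE match 34 bases before the start.

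The library totals ranged from 17297864 to 21793311 counts, of which the 42 members took from 11195 in control 1 to 45630 in resmetirom 1. Control 1 stood apart, with 35.4% of its counts from mitochondrially encoded genes against 2.40% to 4.38% in the other 11 livers. Across genes, log2 CPM correlated at 0.978 to 0.980 among the EE livers, 0.903 to 0.948 among the resmetirom livers, 0.979 to 0.982 among the MASH livers and 0.892 to 0.984 among the control livers. Levels are CPM, counts brought to a common library size after TMM scaling (trimmed mean of M values), so that 1 CPM stands for 9.97 counts in control 1 and up to 26.0 in resmetirom 1. The 8 hepatocyte markers fixed for a check of the tissue summed to between 54387 and 158027 CPM in every liver. A gene passed when its adjusted p in edgeR's quasi-likelihood test lay below 0.05 over the 13988 tested genes, with all 12 livers in 1 fit. All 42 members had enough counts to be tested.

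Per kilobase of transcript, and averaged over the 12 livers, the members spanned a wide range of levels. Ifitm3, a membrane protein that blocks virus entry, stood at 488 CPM per kb, Bst2 (tetherin), which holds virus particles at the cell surface, at 160 CPM per kb, and Ifi27, a mitochondrial and nuclear envelope protein, at 117 CPM per kb. Lgals3bp, a secreted glycoprotein, followed at 39.5 CPM per kb. Mx1, a GTPase that is known to be defective in this mouse strain, was lowest at 0.239 CPM per kb, next to the RNA-activated enzyme Oas2 at 0.303 CPM per kb. Members with close copies share reads that the counting may have split, and their levels are uncertain, namely Oas1a (with Oas1g), Ifit3 (with Ifit3b), Ifi27 (with Ifi27l2a), Mx1 and Mx2, Ifitm3 and the Gbp genes.

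**Figure D1:**
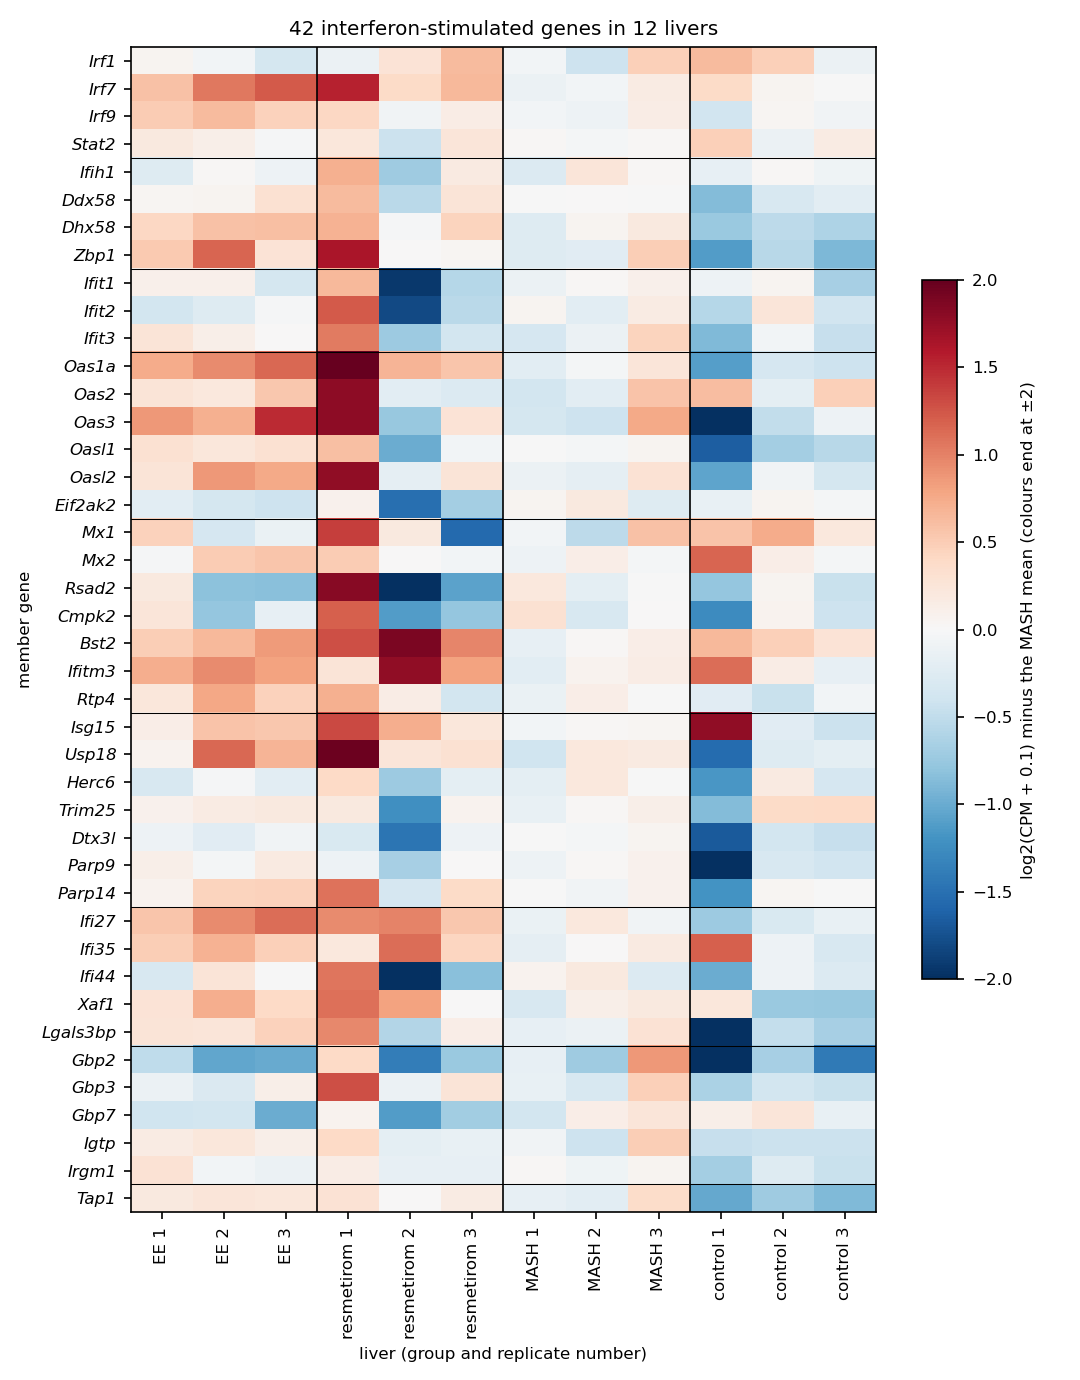
Level of each of the 42 members (rows, grouped by role from transcription factors at the top to Tap1 at the bottom) in each of the 12 livers (columns), as log2(CPM + 0.1) minus the mean of the 3 MASH livers. Resmetirom 1 is high for many type I members, with Oas1a at 20.5 CPM, control 1 is low for many, with Lgals3bp at 16.1 CPM, and the 3 EE livers share high values of Irf7, Oas1a, Bst2, Ifitm3 and Ifi27.

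The comparison of EE with MASH livers asks what Eleutheroside E changed in the diet model. With 12 livers in the fit none of the 42 members passed, and 1 of the 13988 tested genes (0.00715%) did. At an unadjusted p below 0.05, 6 members were higher with EE and 0 lower (2.34% of all tested genes were higher at that level and 5.15% lower). Limma voom called 0 members (0% of all genes), DESeq2 1, Ifi27 (0.210%), and limma voom with quality weights 9 (9.58%). In a fit of these 6 livers alone, 7 members rose and none fell, namely Irf7, Irf9, Oas1a, Bst2, Ifitm3, Ifi27 and Ifi35, while 746 of 13248 genes (5.63%) changed. All 7 are type I members, as are 35 of the 42 members. With the replicate number as a block in that fit, 14 members rose (20.7% of all genes changed), the 7 among them. The block treats same-numbered livers as pairs, which the labels do not state. The 3 EE livers were all above the 3 MASH livers for 13 members (16.8% of all genes) and all below for 1 (15.5%). Of the 42 members 28 had a positive log2 fold change, with a median of 0.17 against −0.02 over all tested genes.

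Among the transcription factors, Irf7, the factor that amplifies the type I response and is itself induced by it, was 42.2, 58.3 and 65.8 CPM in EE livers and 25.8, 27.0 and 31.3 CPM in MASH livers. Every EE liver lay above every MASH liver. The log2 fold change was 0.98 ± 0.29 (SE; edgeR adjusted p = 0.595 with all 12 livers, 0.0271 with the EE and MASH livers alone, and 0.00171 with the block there). Irf9, the DNA-binding part of the type I complex, was 37.7, 41.3 and 36.6 CPM with EE and 25.7, 24.6 and 29.6 CPM in MASH (0.53 ± 0.18; 0.598, 0.0338 and 0.0101). Again the groups did not overlap. Stat2, its partner, was 34.9, 33.1 and 29.995 CPM with EE and 31.003, 29.7 and 31.2 CPM in MASH, and the groups overlapped (0.09 ± 0.21; adjusted p = 0.94). Irf1, the first factor of the interferon gamma response, was 22.8, 21.0 and 17.1 CPM with EE and 21.0, 16.4 and 30.4 CPM in MASH, also with overlap (−0.15 ± 0.28; adjusted p = 0.922).

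Among the antiviral effectors and other induced proteins, Bst2 was 106, 118 and 136 CPM in EE livers and 67.7, 77.1 and 83.2 CPM in MASH livers, with no overlap (0.66 ± 0.24; edgeR adjusted p = 0.61 with all 12 livers, 0.0292 with both groups alone, and 0.0021 with the block). Ifitm3 was 349.6, 404 and 366 CPM with EE and 181, 221 and 234 CPM in MASH (0.82 ± 0.39; 0.68, 0.0225 and 0.00183). Its EE livers were likewise all higher. Ifi27 was 124, 162 and 183 CPM with EE and 76.7, 97.8 and 80.0 CPM in MASH (0.88 ± 0.23; 0.582, 0.0291 and 0.00386). It had the smallest unadjusted p of the members in this comparison (0.00225). Ifi35, an interferon-induced leucine zipper protein, averaged 27.3 ± 2.35 CPM with EE and 18.6 ± 2.33 CPM in MASH (SD, 3 livers each; fold change on the log2 scale 0.55 ± 0.36; 0.787, 0.0414 and 0.0109).

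Of the OAS enzymes, which make the signal that activates RNase L, Oas1a was 8.52, 9.85 and 11.4 CPM in EE livers and 4.35, 4.93 and 6.01 CPM in MASH livers. The groups did not overlap (0.96 ± 0.37; edgeR adjusted p = 0.626 with all 12 livers, 0.0292 with both groups alone, and 0.00405 with the block). Oas2 was 1.08, 1.03 and 1.33 CPM with EE and 0.662, 0.752 and 1.37 CPM in MASH, with overlap (0.30 ± 0.59; adjusted p = 0.928). Of the sensors, Dhx58 (LGP2), a helicase that tunes the RNA sensors Ifih1 (MDA5) and Ddx58 (RIG-I), was 13.3, 14.96 and 15.2 CPM with EE and 8.37, 10.4 and 11.5 CPM in MASH (0.52 ± 0.21; adjusted p = 0.627). With both groups alone and the block, the edgeR adjusted p of Dhx58 was 0.0135. The groups did not overlap for Dhx58 and Ddx58 and overlapped for Ifih1 and for the nucleic acid sensor Zbp1.

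None of the other type I members passed in the fit of these 6 livers without block or offsets. With the block there, further members did pass, with Isg15, Usp18 and Dhx58 among them. The IFIT proteins, which bind viral RNA caps, had log2 fold changes between −0.23 and 0.09 with EE, and Ifit1 was 8.93, 8.92 and 6.46 CPM with EE and 7.61, 8.44 and 8.89 CPM in MASH (−0.04 ± 0.47; edgeR adjusted p = 0.991). Rsad2 (viperin) and its neighbour gene Cmpk2, which act on nucleotides, had log2 fold changes of −0.42 ± 0.81 and −0.20 ± 0.55, and the RNA-activated kinase Eif2ak2 (PKR) −0.34 ± 0.31. In the ISG15 system, which attaches the small protein Isg15 to targets, Isg15 was 8.82, 12.0 and 11.8 CPM with EE and 7.70, 8.15 and 8.23 CPM in MASH, with no overlap (0.43 ± 0.49; adjusted p = 0.875). Usp18, which removes Isg15 and damps the type I receptor, was 9.13, 19.4 and 13.96 CPM with EE and 6.57, 10.1 and 9.87 CPM in MASH, with EE 1 inside the MASH range (0.68 ± 0.48; adjusted p = 0.805). Dtx3l, a ubiquitin ligase that works with Parp9, was the 1 member for which every EE liver lay below every MASH liver (51.4 ± 3.06 CPM with EE and 56.4 ± 1.79 CPM in MASH).

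None of the 7 interferon gamma members passed in any fit of EE against MASH, and 3 of them had a positive log2 fold change (median −0.13, against 0.31 over the 35 type I members, of which 25 were positive). Liver by liver, the median of the 7 relative to the MASH mean was −0.15, −0.33 and 0.47 log2 units in MASH 1, MASH 2 and MASH 3. It was 0.06, −0.06 and −0.12 in the EE livers. MASH 3 alone lay above the EE livers, and MASH 1 and MASH 2 lay below them, so the negative class median leans on MASH 3. Gbp2, a guanylate-binding GTPase that attacks the vacuoles of microbes, was 5.95, 4.08 and 4.21 CPM in EE livers and 7.61, 5.18 and 15.6 CPM in MASH livers (−0.997 ± 0.73; edgeR adjusted p = 0.81). The groups overlapped, and MASH 3 was far above the rest. Irgm1, a GTPase that guards membranes during autophagy, was 60.6, 47.9 and 45.8 CPM with EE and 50.9, 46.8 and 52.0 CPM in MASH (0.04 ± 0.19; adjusted p = 0.971). Tap1, a chain of the pump that loads peptides onto MHC class I, was 31.4, 32.5 and 32.4 CPM with EE and 24.4, 23.9 and 35.7 CPM in MASH (0.20 ± 0.19; adjusted p = 0.85). MASH 3 was again the highest of these 6 livers.

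**Figure D2:**
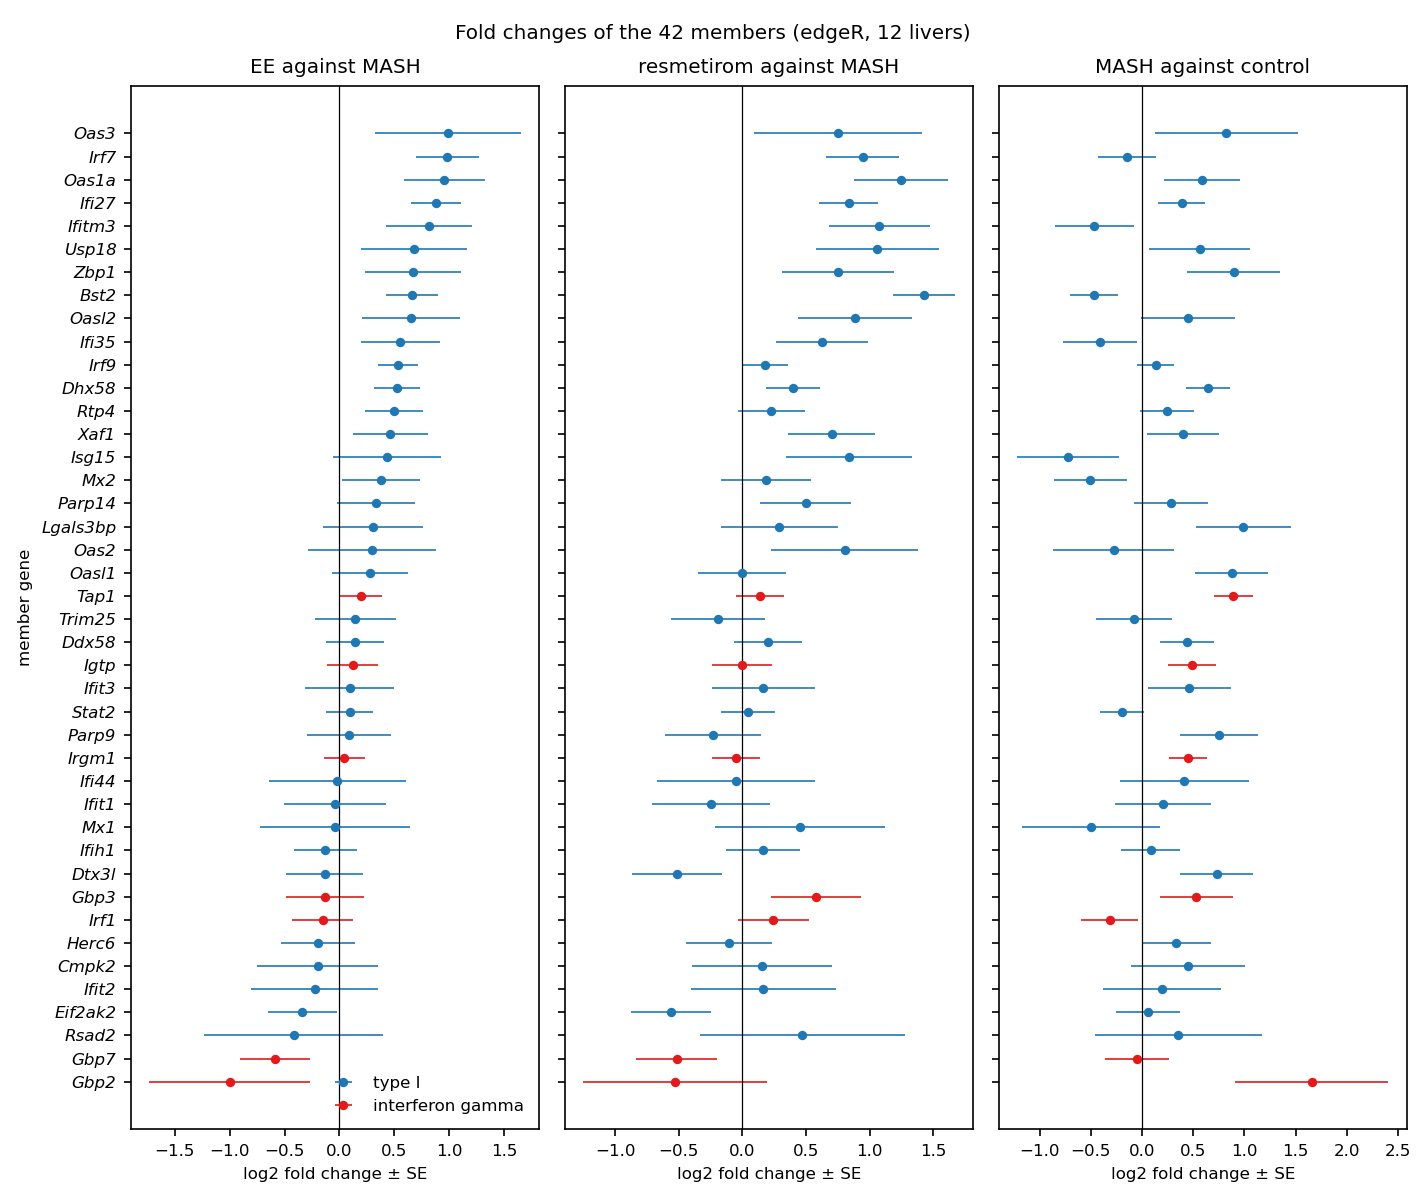
Log2 fold change (points) with its SE (bars) of each of the 42 members in 3 comparisons, from the edgeR fit of 12 livers, with type I members in blue and interferon gamma members in red, sorted by EE against MASH. Bst2 at 1.43 in resmetirom against MASH is the 1 value here that passed, and Gbp2 is lowest with EE at −0.997 and highest in MASH against control at 1.66.

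Transcript length and GC content moved with the EE comparison. The median log2 fold change was 0.47 over the 21 shorter members (678 to 3240 bases) and 0.04 over the 21 longer ones (3274 to 7417 bases). It was 0.52 over the 21 members of higher GC (49.5% to 56.3%), of which 20 were positive, and −0.04 over the 21 of lower GC (39.4% to 49.4%), of which 8 were. Across the 13364 tested genes with a transcript, the log2 deviation from the MASH mean had a Spearman correlation of −0.28 to −0.22 with length and 0.24 to 0.39 with GC in the 3 EE livers. In the resmetirom livers it was 0.13, −0.42 and −0.10 with length and 0.20, 0.37 and 0.44 with GC, and MASH 3 had 0.41 with GC. In resmetirom against MASH the members' medians were 0.58 (shorter), 0.15 (longer), 0.63 (higher GC) and 0.16 (lower GC). Over these genes, which share a library, this is a description. In EE against MASH, with offsets that remove such trends from each library, the member sets had medians of 0.44 (shorter) and 0.20 (longer). The medians were 0.44 (higher GC) and 0.12 (lower GC), and 35 of 42 members were positive (median 0.24). The offsets also moved the median of all tested genes in this comparison, from −0.02 to 0.05. In the EE and MASH livers alone with these offsets, 7 members rose, which were the earlier 7 with Parp14, an ADP-ribosyltransferase, in place of Ifi35 (4.29% of all genes changed). Of all genes in that fit 442 rose and 127 fell, against 391 and 355 without the offsets. With the block as well, 13 rose (15.0%). For Irf7 the log2 fold change was 0.93 with the offsets against 0.97 without, and for Bst2 0.48 against 0.65.

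**Figure D3:**
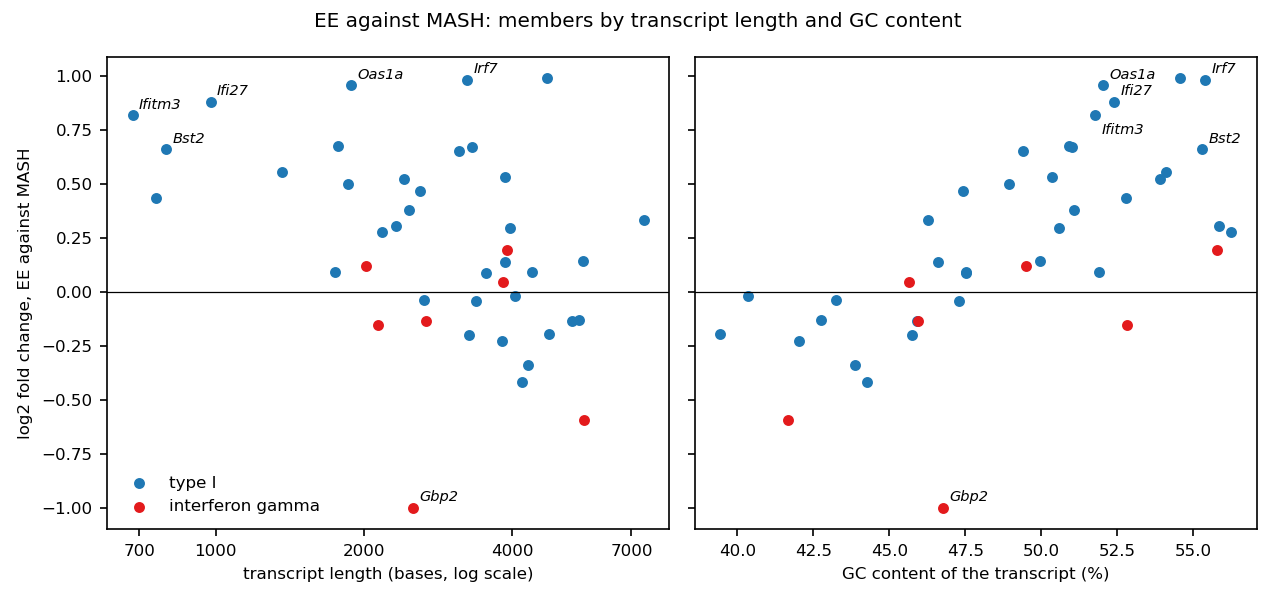
Log2 fold change of each of the 42 members in EE against MASH, plotted by the length of its longest annotated transcript (left, log scale) and by its GC content (right), with type I members in blue and interferon gamma members in red. The members of higher GC, 49.5% and above, lie above 0 in 20 of 21 cases.

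Cell type markers also moved between EE and MASH. The 10 markers of monocytes and recruited macrophages summed to 66.6 to 80.1 CPM in EE livers and 129 to 143 CPM in MASH livers, with all 10 log2 fold changes negative. The 12 Kupffer cell markers summed to 473 to 609 CPM with EE and 407 to 502 CPM in MASH, with 11 of 12 positive, and the 8 hepatocyte markers to 100083 to 105908 CPM with EE and 74652 to 89623 CPM in MASH, with all 8 positive. Markers of plasmacytoid dendritic cells, strong makers of type I interferon, summed to 3.86 to 6.31 CPM with EE and 5.97 to 9.17 CPM in MASH. Those of T and NK cells, makers of interferon gamma, summed to 5.54 to 7.78 CPM with EE and 3.83 to 15.5 CPM in MASH, with MASH 3 highest. Both sums are low, and only 2 of 6 and 6 of 12 of these markers had enough counts to be tested. Positive log2 fold changes were found for 0 of 8 sinusoidal endothelial, 0 of 5 tested cholangiocyte and 0 of 5 tested B cell markers. They were found for 1 of 6 stellate cell, 1 of 4 tested neutrophil and all 5 tested erythroid markers. The endothelial sums overlapped (153 to 307 CPM with EE and 229 to 293 CPM in MASH). The part of these markers in the members' values was not tested. In bulk liver, a change in the number of cells of a type and a change in RNA per cell cannot be told apart.

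The comparison of resmetirom with MASH livers uses the same MASH livers, so it is not independent of the comparison above. Bst2 rose, at 185, 278 and 149 CPM in resmetirom livers and 67.7, 77.1 and 83.2 CPM in MASH livers. The groups did not overlap. The log2 fold change was 1.43 ± 0.24 (SE; edgeR adjusted p = 0.0245). Bst2 was the 1 of 42 members that passed, while 93 of the 13988 tested genes (0.665%) did. The call was lost without MASH 1, MASH 2 or MASH 3 (adjusted p = 0.137, 0.12 and 0.125), without EE 1, EE 2 or EE 3 (0.0505, 0.0531 and 0.051), without resmetirom 2 (0.0601), and with the resmetirom and MASH livers alone (0.136), while in all of these the log2 fold change was between 1.13 and 1.49.

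At an unadjusted p below 0.05, 6 members were higher with resmetirom and 0 lower (8.18% and 6.85% of all tested genes), and the groups were apart for 8 members upward (11.6%) and 1 downward (12.3%). Of the 6, Ifi27 was 162, 169 and 123 CPM in resmetirom livers and 76.7, 97.8 and 80.0 CPM in MASH livers (0.83 ± 0.23; edgeR adjusted p = 0.119). It did not overlap, and its value was 0.78 without resmetirom 1. Oas1a was 20.5, 8.16 and 7.48 CPM with resmetirom and 4.35, 4.93 and 6.01 CPM in MASH (1.25 ± 0.37; adjusted p = 0.149). Irf7 was 81.5, 36.5 and 43.6 CPM with resmetirom and 25.8, 27.0 and 31.3 CPM in MASH (0.94 ± 0.29; adjusted p = 0.157). In both genes resmetirom 1 was the highest liver, and without it the log2 fold changes were 0.61 and 0.51. Ifitm3 was 251, 719.6 and 368 CPM with resmetirom and 181, 221 and 234 CPM in MASH (1.08 ± 0.39; adjusted p = 0.232), and the value was 0.54 without resmetirom 2. Usp18 was 34.0, 10.3 and 10.8 CPM with resmetirom and 6.57, 10.1 and 9.87 CPM in MASH (1.06 ± 0.48; adjusted p = 0.33), and it was 0.25 without resmetirom 1.

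The remaining fixed members did not pass in this comparison. Isg15 was 20.3, 13.3 and 9.42 CPM in resmetirom livers and 7.70, 8.15 and 8.23 CPM in MASH livers, with no overlap (0.84 ± 0.49; edgeR adjusted p = 0.444). Oas2 was 3.31, 0.749 and 0.717 CPM with resmetirom, against 0.662 to 1.37 CPM in MASH (0.80 ± 0.58; adjusted p = 0.534), and Ifit1 13.1, 2.10 and 5.58 CPM, against 7.61 to 8.89 CPM (−0.25 ± 0.47; adjusted p = 0.835). In both genes resmetirom 1 alone was above the MASH range. Rsad2 ranged from 0.973 CPM in resmetirom 2 to 30.6 CPM in resmetirom 1, on both sides of the MASH range of 7.52 to 10.02 CPM. Stat2 was 35.9, 22.8 and 36.1 CPM with resmetirom, against 29.7 to 31.2 CPM in MASH (0.05 ± 0.21; adjusted p = 0.935), and Irf1 20.1, 26.4 and 33.9 CPM, against 16.4 to 30.4 CPM (0.24 ± 0.28; adjusted p = 0.709). Gbp2 was 11.3, 3.22 and 5.07 CPM with resmetirom, against 5.18 to 15.6 CPM in MASH (−0.53 ± 0.72; adjusted p = 0.761). Irgm1 was 55.3, 44.6 and 44.5 CPM with resmetirom, against 46.8 to 52.0 CPM in MASH (−0.05 ± 0.19; adjusted p = 0.921). Tap1 had a log2 fold change of 0.14 ± 0.19 (adjusted p = 0.764), and the groups overlapped for all 3 genes.

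The resmetirom livers differed among themselves more than the EE livers. Relative to the MASH mean, the median of the 42 members was 0.71 log2 units in resmetirom 1, −0.20 in resmetirom 2 and 0.06 in resmetirom 3, against 0.19, 0.23 and 0.26 in the EE livers. The median log2 fold change of resmetirom against MASH was 0.21, against 0.06 over all tested genes, with 30 of 42 members positive, and without resmetirom 1 it was −0.13. Markers of immune cells moved with single resmetirom livers as well. In resmetirom 1 the monocyte and recruited macrophage markers summed to 281 CPM, against at most 105 CPM in the other resmetirom livers, and the Kupffer cell markers to 999 CPM, against 400 and 512 CPM. The B cell markers summed to 17.03, 133 and 104 CPM in resmetirom livers and 6.39 to 11.3 CPM in MASH livers, with all 5 tested markers positive and 1 of them passing, and Ighm alone was 12.6, 128 and 100.5 CPM in resmetirom livers. The sum was highest in resmetirom 2, as were Bst2 and Ifitm3. Their part in the members' values was not tested.

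**Figure D4:**
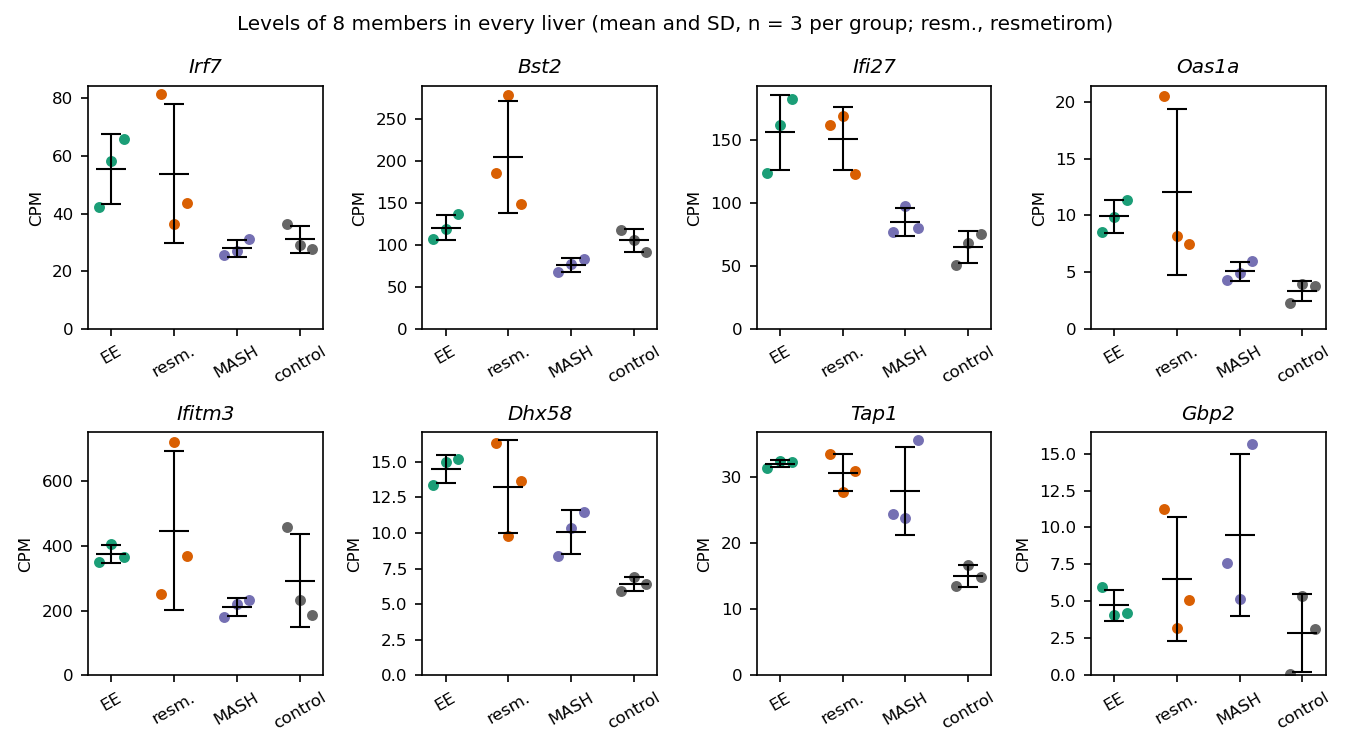
CPM of 8 members in every liver (points) with the group mean and SD (bars, n = 3), in the order EE, resmetirom (resm.), MASH and control, on linear axes from 0. Bst2 lies between 149 and 278 CPM in resmetirom livers, above all other livers, and Tap1 between 13.5 and 16.8 CPM in control livers, below all other livers.

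Between EE and resmetirom livers, 0 of the 42 members passed in edgeR (0.307% of all genes did), 0 were higher and 1 was lower with EE at an unadjusted p below 0.05 (4.35% and 7.46% of all genes), DESeq2 called 0 members (2.95%) and limma voom 0 (0.214%). The 1 lower member was Bst2, at 106, 118 and 136 CPM in EE livers and 185, 278 and 149 CPM in resmetirom livers, with no overlap, which 9.04% of all genes showed in this direction (log2 fold change −0.76 ± 0.24, 95% interval −1.31 to −0.21; edgeR adjusted p = 0.218). The B cell markers summed to 3.40 to 8.72 CPM in EE livers and 17.03 to 133 CPM in resmetirom livers, with 0 of 5 tested markers positive (median −2.03) and 1 passing. The 10 monocyte and recruited macrophage markers had 0 positive values and a median of −1.55. The part of these markers in the Bst2 difference was not tested. Irf9 was the 1 member for which every EE liver (36.6 to 41.3 CPM) lay above every resmetirom liver (25.4 to 35.2 CPM), where 8.73% of all genes did so. Irf7 differed by 0.04 ± 0.28 and Ifi27 by 0.05 ± 0.23, both with overlap. The median over the members was −0.07, against −0.08 over all genes, and it turned to 0.40 without resmetirom 1.

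The comparison of MASH with control livers asks what the diet model changed. Of the 42 members 0 passed in edgeR, while 2 of 13988 genes (0.0143%) did. At an unadjusted p below 0.05, 5 members were higher and 0 lower (3.15% and 6.08% of all genes). Limma voom called 0 members (0.00715%), DESeq2 1, Tap1 (0.626%), and limma voom with quality weights 3, Tap1, Dhx58 and Oasl1 (4.03%). Tap1 was 24.4, 23.9 and 35.7 CPM in MASH livers and 13.5, 16.8 and 14.9 CPM in control livers, with no overlap (log2 fold change 0.89 ± 0.19; edgeR adjusted p = 0.242). Dhx58 was 8.37, 10.4 and 11.5 CPM in MASH and 5.92, 6.89 and 6.44 CPM in controls, also apart (0.65 ± 0.21; adjusted p = 0.51). Irgm1 was 50.9, 46.8 and 52.0 CPM in MASH and 30.9, 41.9 and 36.6 CPM in controls (0.45 ± 0.19; adjusted p = 0.521). The OAS-like protein Oasl1, which restrains Irf7 translation, was 14.3, 13.9 and 14.9 CPM in MASH and 4.52, 8.96 and 9.79 CPM in controls (0.87 ± 0.35; adjusted p = 0.521). These 3 also separated the groups. Gbp2 was 7.61, 5.18 and 15.6 CPM in MASH and 0.1003, 5.37 and 3.14 CPM in controls, where control 1 holds 1 count (1.66 ± 0.75; adjusted p = 0.537), and its groups overlapped.

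The MASH livers were all above the controls for 13 members (10.2% of all genes) and all below for Bst2 (9.41%), which was 67.7, 77.1 and 83.2 CPM in MASH and 118, 106 and 91.8 CPM in controls (−0.47 ± 0.24; edgeR adjusted p = 0.577). Of the 42 members 30 were positive, with a median of 0.37 against −0.02 over all genes. The median was 0.54 over the 4 sensors, 0.52 over the 6 genes of the OAS family and PKR, 0.49 over the 5 GTPases, 0.40 over the 5 other induced proteins, 0.34 over the 7 genes of the ISG15 system and 0.21 over the 3 IFIT genes. It was −0.17 over the 4 transcription factors and −0.47 over the 7 other antiviral effectors, of which 3 were positive. Of the 4 negative effectors, Ifitm3 was 456, 233 and 187 CPM in controls, against 181 to 234 CPM in MASH. Mx2 was 5.12, 2.45 and 2.18 CPM in controls, against 2.08 to 2.47 CPM in MASH. For Ifitm3 and Mx2 control 1 alone lay above the MASH range, which was not so for Bst2 and Mx1. Irf7 was 25.8, 27.0 and 31.3 CPM in MASH and 36.3, 29.1 and 27.8 CPM in controls (−0.15 ± 0.29; adjusted p = 0.888), and Isg15 7.70 to 8.23 CPM in MASH and 27.7, 6.84 and 5.93 CPM in controls, with control 1 far above the rest (−0.73 ± 0.50; adjusted p = 0.693). In the control livers Stat2 was 42.8, 28.3 and 34.3 CPM, Irf1 33.9, 30.5 and 20.1 CPM, Ifit1 7.73, 8.66 and 5.22 CPM, Oas2 1.40, 0.760 and 1.27 CPM, and Usp18 2.91, 7.22 and 7.56 CPM. For these 5 genes MASH and control livers overlapped, and the adjusted p ranged from 0.75 to 0.906. Relative to the MASH mean, the members' median was −0.71 log2 units in control 1, −0.11 in control 2 and −0.33 in control 3. The Kupffer cell markers summed to 407 to 502 CPM in MASH livers and to 82.1, 423 and 362 CPM in controls, with control 1 lowest, and their part in this was not tested.

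The treated livers were also set against the control livers, which the MASH comparison uses too. In resmetirom against control, 4 members rose, namely Tap1 (1.03 ± 0.19; edgeR adjusted p = 0.0207), Ifi27 (1.22 ± 0.23; 0.0219), Dhx58 (1.05 ± 0.22; 0.0291) and Oas1a (1.83 ± 0.38; 0.0291), while 442 of 13988 genes (3.16%) passed. Tap1 was 33.5, 27.8 and 30.9 CPM with resmetirom and 13.5, 16.8 and 14.9 CPM in controls, and Ifi27 162, 169 and 123 CPM with resmetirom and 50.7, 68.1 and 75.7 CPM in controls. Dhx58 was 16.3, 9.81 and 13.6 CPM with resmetirom and 5.92, 6.89 and 6.44 CPM in controls, and Oas1a 20.5, 8.16 and 7.48 CPM with resmetirom and 2.31, 3.97 and 3.75 CPM in controls. None of the 4 overlapped between these groups. Resmetirom 1 was highest for Oas1a, whose log2 fold change was 1.20 without it. Every resmetirom liver was above every control liver for 11 members (9.94% of all genes) and below for 0 (10.9%). At an unadjusted p below 0.05, 15 were higher and 0 lower (11.0% and 11.9%). With the resmetirom and control livers alone, edgeR called 0 members and 0.0378% of all genes (adjusted p = 0.245, 0.257, 0.311 and 0.296 for the 4). Tap1 was also lost without control 3 (0.0675) and Ifi27 without control 2 (0.06), and Dhx58 and Oas1a without either of these, MASH 2, EE 2 or EE 3 (0.0533 to 0.078). Dhx58 was lost as well without EE 1, resmetirom 1 or resmetirom 3 (0.0504, 0.0527 and 0.0537).

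In EE against control, 0 members passed in edgeR (0.100% of all genes did) and 17 had an unadjusted p below 0.05, all higher with EE (5.13% of all genes were higher and 11.0% lower). Limma voom called 0 members (0.0643%), DESeq2 7 (4.41%) and limma voom with quality weights 21 (18.3%). The smallest adjusted p were those of Tap1 (1.09 ± 0.19; edgeR adjusted p = 0.0656), Ifi27 (1.27 ± 0.23; 0.0656) and Dhx58 (1.17 ± 0.22; 0.0661). Oas1a followed (1.54 ± 0.38; 0.112), then Irf9 (0.66 ± 0.18; 0.136) and Zbp1 (1.57 ± 0.46; 0.157), a sensor that triggers cell death. Every EE liver was above every control liver for 22 members (13.7% of all genes) and below for 2, Eif2ak2 and Gbp7 (13.4%). Without resmetirom 1, 4 members passed (Tap1, Ifi27, Dhx58 and Oas1a), without resmetirom 2 there were 2 (Tap1 and Dhx58) and without MASH 3 there was 1 (Tap1).

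Across the 4 groups at once, 4 members passed edgeR's test, namely Ifi27 (adjusted p = 0.033), Bst2 (0.0431), Tap1 (0.044) and Dhx58 (0.0497), while 224 genes (1.60%) did. At an unadjusted p below 0.05 there were 12 members (19.2% of all genes). Ifi27 averaged 156 ± 29.8 CPM with EE, 151 ± 24.9 CPM with resmetirom, 84.8 ± 11.3 CPM in MASH and 64.8 ± 12.8 CPM in controls (SD, n = 3 each). Bst2 averaged 120.3 ± 15.004 CPM with EE, 204 ± 66.7 CPM with resmetirom, 76.0 ± 7.81 CPM in MASH and 105 ± 13.2 CPM in controls. Tap1 averaged 32.1 ± 0.568 CPM with EE, 30.7 ± 2.86 CPM with resmetirom, 27.996 ± 6.67 CPM in MASH and 15.1 ± 1.62 CPM in controls. Dhx58 averaged 14.5 ± 1.00 CPM with EE, 13.2 ± 3.26 CPM with resmetirom, 10.1 ± 1.57 CPM in MASH and 6.42 ± 0.484 CPM in controls. The mean of Ifi27 thus lay nearer to MASH in controls than in treated livers, and that of Tap1 nearer to MASH in treated livers than in controls. Without any 1 of MASH 1, MASH 2, MASH 3, EE 1, EE 2, EE 3, control 2 or control 3, none of the 4 passed (adjusted p = 0.0524 to 0.13), without resmetirom 1 Bst2 was lost (0.0524), without resmetirom 3 Tap1 and Dhx58 were (0.0624 and 0.0738), with resmetirom 2 left out Dhx58 alone passed, with control 1 left out Bst2 and Ifi27 did, and with a replicate block Ifi27 alone did.

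The type I and interferon gamma members were followed liver by liver. Relative to the MASH mean, the median of the 35 type I members was 0.24, 0.25 and 0.40 log2 units in the EE livers, 0.96, −0.34 and 0.07 in the resmetirom livers, −0.12, 0.01 and 0.11 in the MASH livers and −0.74, −0.10 and −0.27 in the controls. The median of the 7 interferon gamma members was 0.06, −0.06 and −0.12 with EE, 0.28, −0.16 and −0.15 with resmetirom, −0.15, −0.33 and 0.47 in MASH and −0.64, −0.37 and −0.44 in controls. The type I median lay above the interferon gamma median in 9 of the 12 livers, the 3 EE livers among them, and in control livers both were below 0. The exceptions were resmetirom 2, MASH 3 and control 1. In the fitted values, the type I median was 0.31 in EE against MASH, 0.29 in resmetirom against MASH and 0.34 in MASH against control. The interferon gamma median was −0.13, −0.00010 and 0.49 in the same comparisons. The difference between the classes was not tested, and with no scaling factors, which shifts the median of all genes by −0.30 in EE against MASH, the type I median there was 0.0029 and the interferon gamma median −0.44.

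**Figure D5:**
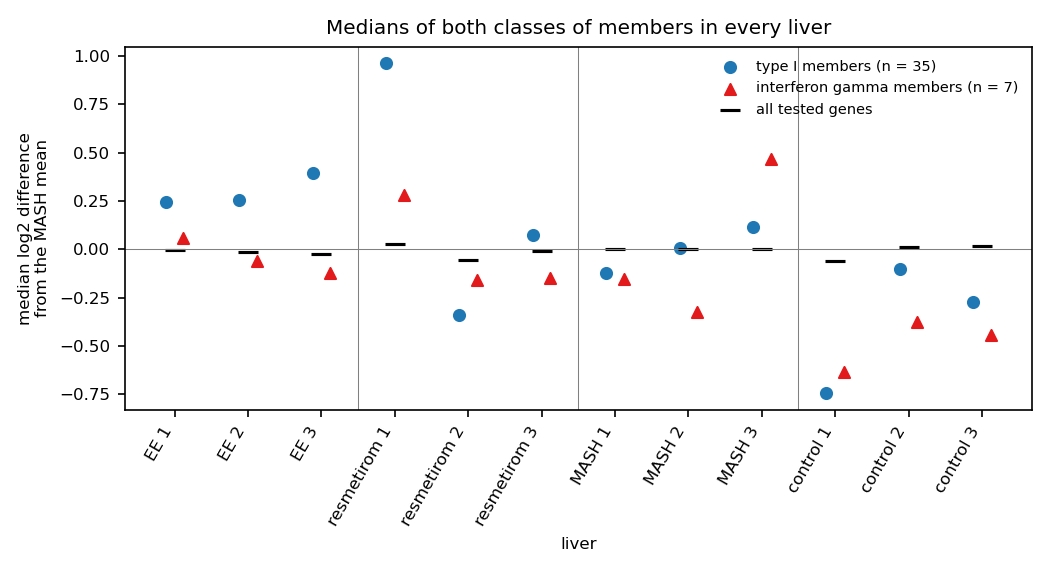
Median log2 difference from the MASH mean of the 35 type I members (circles), the 7 interferon gamma members (triangles) and all tested genes (bars) in each of the 12 livers. The type I medians are 0.24 to 0.40 in the EE livers and 0.96 in resmetirom 1, and the interferon gamma medians are −0.37 or lower in all 3 controls.

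The ligands of the pathway were at the edge of detection. Of 21 interferon symbols looked up, Ifna9 and Ifng had rows in the table. Ifna9 had 1 count in resmetirom 1 and 0 in the other 11 livers. Ifng had 1 count in resmetirom 1, 1 in each MASH liver and 0 in the EE and control livers, so neither could be tested and no difference was detectable at this depth.

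Of the receptors and kinases, 0 of 9 tested genes passed in edgeR in EE against MASH, resmetirom against MASH or MASH against control. At an unadjusted p below 0.05 there were 1, 1 and 2 of them. At that level 2.34% of all tested genes were higher and 5.15% lower in EE against MASH. These shares were 8.18% and 6.85% in resmetirom against MASH, and 3.15% and 6.08% in MASH against control. The same shares apply to the lists that follow. Ifnar1 was 29.8, 28.3 and 23.4 CPM with EE, 30.8, 29.3 and 22.03 CPM with resmetirom, 25.4, 27.3 and 23.6 CPM in MASH and 23.7, 27.5 and 24.95 CPM in controls, and its groups overlapped throughout. Ifnar2 was 47.4 to 50.2 CPM with EE, 35.5 to 59.1 CPM with resmetirom, 40.1 to 45.5 CPM in MASH and 103, 45.4 and 50.2 CPM in controls, with control 1 highest. Ifngr1 was 11.7 to 13.6 CPM with EE, 14.0001 to 29.15 CPM with resmetirom, 14.6 to 16.2 CPM in MASH and 5.52, 14.6 and 11.5 CPM in controls, and Ifngr2 12.6 to 14.9 CPM with EE, 8.46 to 21.2 CPM with resmetirom, 13.9 to 15.1 CPM in MASH and 5.72 to 11.0 CPM in controls. For both gamma receptor chains, control 1 was the lowest liver. Jak2 was the kinase with the smallest p in EE against MASH (7.44 to 9.54 CPM with EE and 10.7 to 11.8 CPM in MASH; −0.47 ± 0.19; edgeR adjusted p = 0.627).

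Upstream of interferon, 0 of 16 tested sensors and adaptors passed in any of EE against MASH, resmetirom against MASH and MASH against control in edgeR, and 1, 2 and 0 of them had an unadjusted p below 0.05. Tlr3, the endosomal sensor of double-stranded RNA, had a log2 fold change of −0.85 with EE (edgeR adjusted p = 0.595). Irf5, a factor downstream of toll-like receptors, had 0.73 with EE and 1.01 with resmetirom (0.719 and 0.263), and Sting1, the adaptor of DNA sensing, 0.87 with resmetirom (0.271). Of 11 tested negative regulators, 0 passed in edgeR in these comparisons, and 2, 0 and 4 had an unadjusted p below 0.05. The RNA-editing enzyme Adar had a log2 fold change of 0.46 in EE against MASH (0.642) and 0.43 in resmetirom against MASH (0.346).

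A further 29 type I genes outside the 42 were looked up as well. Of these, 11 were positive in EE against MASH (median −0.07), 22 in resmetirom against MASH (0.26) and 22 in MASH against control (0.24). In edgeR 0 passed in each, and 1, 3 and 1 had an unadjusted p below 0.05. Ifi47, an inducible GTPase, was 34.7, 31.1 and 19.7 CPM with EE, 35.8, 43.6 and 23.4 CPM with resmetirom, 18.4, 15.5 and 22.3 CPM in MASH and 10.7, 16.6 and 10.8 CPM in controls, and it rose in resmetirom against control (1.42; edgeR adjusted p = 0.0293). Samd9l, a restriction factor, had the smallest p of the list in EE against MASH (−1.03; adjusted p = 0.627). Of 28 further interferon gamma genes tested, 13 were positive in EE against MASH (median −0.18), 22 in resmetirom against MASH (0.35) and 19 in MASH against control (0.26). In edgeR 0 passed in each, and 3, 9 and 3 had an unadjusted p below 0.05. The shares of all tested genes at that level are those given above with the receptors. The T cell chemokine Cxcl9 was 8.00, 5.22 and 3.46 CPM with EE and 13.4, 8.82 and 27.7 CPM in MASH, with no overlap (−1.58; adjusted p = 0.595), and 6.22, 8.58 and 4.56 CPM in controls (MASH against control 1.36; adjusted p = 0.518). Tap2, the partner of Tap1, was 34.7, 38.6 and 32.2 CPM with resmetirom and 23.2, 21.7 and 16.0 CPM in controls and rose (0.79; adjusted p = 0.0478). In resmetirom against control, Ifi47 was the 1 of the 29 further type I genes that passed. Tap2 was the 1 of the 28 further interferon gamma genes, near the share of all tested genes (3.16%). H2-T23, a non-classical MHC class I molecule, was 213, 255 and 251 CPM with EE, 279, 407 and 267 CPM with resmetirom and 167, 176 and 170 CPM in MASH, and both treated groups lay above MASH (0.48 and 0.89; adjusted p = 0.667 and 0.0949).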

How the data were processed

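RNA extracted with TRIzol from 12 mouse livers was sequenced as poly(A)-selected, stranded mRNA libraries, per the labels' protocols. The authors deposited 1 table of expected counts per gene and liver (estimated counts, 91.5% to 93.3% of them whole). Per the submitters' processing notes, fastp and the GRCm39 build were used. The sources used here give no aligner, counter or strand setting, so overlapping and antisense genes cannot be told apart. Counts were rounded and tested with edgeR 4.0.16 (R 4.3.3; TMM, filterByExpr by group, robust quasi-likelihood F test, Benjamini-Hochberg adjustment over 13988 genes). SE is the log2 fold change divided by the root of F. limma 3.58.1 and DESeq2 1.42.0 were alternatives, as were other scalings, filters, left-out livers, the compared groups alone, a replicate block, and, added after seeing the data, offsets for transcript length and GC content. Symbols came from GENCODE M21 (22603 of 28036 identifiers named). The steps were tested on simulated counts for EE against MASH. The simulation had no length or GC trends, no pairing and the same spread per gene in all libraries, so it does not bear on these features. Same-numbered EE and MASH livers had correlated deviations (0.19, 0.158 and 0.149), and the other pairs of groups did not all pass 0.1. Between resmetirom and MASH livers the correlations were 0.129, 0.182 and −0.0179. The labels state no pairing, and only same-numbered livers were correlated. Whether the numbers pair the EE and MASH livers was therefore not tested, and fits with the block assume it. The members and lists were chosen with earlier results of these data known. Values in every liver were given for 10 fixed members, and up to 6 more per comparison were taken from those with the smallest unadjusted p. Ifitm3 and Ifi35 in EE against MASH, Bst2 in MASH against control, and Dtx3l, Rsad2, Cmpk2 and Eif2ak2 were named after their values were seen. An item withheld for evaluation is not reported here.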

Additional observations from a re-analysis of the deposited data

How the results depend on the processing

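No member that passed reversed its direction under the alternatives run, while the members' median changed sign in 3 comparisons, as given below. The share of all tested genes that passed under the same setting follows each count in parentheses. For EE against MASH the number of members that passed was 1 with DESeq2 (0.210%), 9 with limma voom with quality weights (9.58%), 7 with the compared groups alone (5.63%), 14 with the replicate block there (20.7%), 7 with length and GC offsets there (4.29%), 13 with both (15.0%), and 8 without control 1, resmetirom 1 and resmetirom 2 together (8.99%). For resmetirom against MASH it was 4 with DESeq2 (4.73%), 3 with quality weights (5.96%), 2 without control 1 and resmetirom 2 (3.29%), 2 without these and resmetirom 1 (2.74%), and 0 without scaling factors (0.272%) or with the compared groups alone, with or without the replicate block or offsets (0 to 0.393%). For MASH against control it was 1 with DESeq2 (0.626%), 3 with quality weights (4.03%) and 1 without the 3 libraries (0.759%). For EE against control it was 7 with DESeq2 (4.41%), 21 with quality weights (18.3%), 5 with no filter (0.419%), 7 without control 1 and resmetirom 2 (4.15%), and 17 without the 3 (13.0%). For resmetirom against control it was 10 with DESeq2 (11.1%), 9 with quality weights (15.3%), 11 without control 1 and resmetirom 2 (7.46%), 1 with offsets (1.74%), 0 with the replicate block and offsets (1.43%), 0 without scaling factors (0.265%), and 0 with the compared groups alone under each of the block and offset settings (0 to 0.0454%). Across the 4 groups it was 8 with DESeq2 (11.9%), 19 with quality weights (29.6%), 7 with no filter (2.40%), 1 with the replicate block (0.872%), 1 with offsets (0.951%), 0 with both (0.693%), 10 without control 1 and resmetirom 2 (7.78%), 14 without the 3 (15.4%), and 0 without scaling factors (0.343%). The cause of these shifts was not tested. Without scaling factors the members' median was 0.70 in MASH against control and −0.13 in EE against MASH, while the median of all genes shifted by 0.38 and −0.30. The EE against resmetirom median was 0.32 without the 3 libraries. Leaving out 1 liver at a time gave 0 to 2 called members for resmetirom against MASH, 0 to 4 for EE against control, 1 to 7 for resmetirom against control, 0 to 4 across the 4 groups and 0 in the other comparisons. The medians then ranged from 0.11 to 0.36 (EE against MASH), −0.13 to 0.45 (resmetirom against MASH), −0.28 to 0.40 (EE against resmetirom), 0.24 to 0.50 (MASH against control), 0.40 to 0.62 (EE against control) and 0.28 to 0.81 (resmetirom against control). Each group has 3 livers, and control 1 has the fewest counts for the members, so members of low count there are the least precise.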
